A study of Mus musculus with 20 samples.

Results

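MHC class II molecules present peptides from swallowed or surface-derived proteins to CD4+ T cells. Each is a pair of an alpha and a beta chain that is first held by the invariant chain Cd74 and then loaded with peptide with the help of the H2-DM pair, and the genes are switched on through the coactivator Ciita, which interferon gamma can induce. Langerhans cells are the resident antigen-presenting cells of the epidermis. They carry class II at their surface, are marked in mouse skin by langerin (Cd207) and the adhesion molecule Epcam, and raise the costimulatory ligand Cd86 when they mature and leave for the lymph node.

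The genes examined here were taken by symbol from the count table, 10 of its 22090 rows, and all 10 had counts and were kept by the filter on low counts in every comparison. They were the class II chain genes H2-Aa, H2-Ab1 and H2-Eb1, the loading and chaperone genes H2-DMa, H2-DMb1 and Cd74, the coactivator Ciita, and Cd207, Epcam and Cd86. In the GENCODE M21 annotation of GRCm38, H2-DMa, H2-DMb1, H2-Ab1, H2-Aa and H2-Eb1 lie close together on chromosome 17, from 34119541 at the first base of H2-DMa to 34316674 at the last base of H2-Eb1. Epcam lies on the same chromosome (87635979 to 87651129), Ciita (10480059 to 10528418) and Cd86 (36603869 to 36666081) on chromosome 16, Cd207 (83671215 to 83677857) on chromosome 6 and Cd74 on chromosome 18. All are protein-coding. Exons of H2-DMa overlap Brd2 and those of Ciita overlap Dexi on the other strand, and H2-DMb1 shares 15.8% of its 75-base words with H2-DMb2, so reads of these pairs could not be told apart with certainty.

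The tissues were skin of 8 SKH-1 mice, all female and 7 months old when obtained, before the weeks of irradiation, a hairless and immunocompetent strain with no engineered allele. In 4 mice no ultraviolet light was given and 1 piece of normal skin (NS) was taken from each, and 4 mice were irradiated with a solar ultraviolet simulator and gave 1 NS, 2 actinic keratosis (AK) lesions and 1 cutaneous squamous cell carcinoma (cSCC) each. The 8 NS, 8 AK and 4 cSCC samples were each compared as 1 group, because the labels do not separate irradiated from unirradiated NS or the grades of AK and tie no tissue to a mouse. Whole pieces of tissue were sequenced, so fewer cells of a type and less RNA per cell cannot be told apart at any value below.

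Levels are given as CPM, a gene's counts relative to its library's total after scaling by TMM factors. Totals ran from 1624325 to 6295575 counts in NS, from 867219 to 14055206 in AK and from 775750 to 7095102 in cSCC. Of the 4 cSCC libraries, 3 stood apart. In cSCC replicate 18 the 10 most abundant genes took 49.5% of the counts and the TMM factor was 0.509. The hemoglobin gene Hba-a1 alone took 16.7% there. Replicate 20 held lung epithelium genes, whose 10 listed genes summed to 36374 CPM against at most 135 CPM in any NS or AK sample, with surfactant protein gene Sftpc at 22389 CPM. Replicate 21 held heart muscle genes, whose 8 listed genes summed to 57328 CPM against at most 79.5 CPM in NS and AK, with the cardiac actin gene Actc1 at 15454 CPM. The heart sums of cSCC replicates 18, 19 and 20 were 80.6, 106 and 157 CPM, also above every NS and AK sample. The lung list had 4 and the heart list 5 genes higher in cSCC vs. NS, and neither list had a call in AK vs. NS. The cSCC comparisons were therefore also made without replicates 20 and 21, which leaves only replicates 18 and 19 in that group. In that setting the heart list still had 2 genes higher vs. NS and 1 vs. AK. The lung list had 0 higher and 1 lower in each.

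Class II genes share promoter elements, an X box bound by RFX factors and a Y box, which is an inverted CCAAT box bound by NF-Y, so the promoter bases of members are shown with the letters that matched. The RefSeq promoter table of GRCm38.p6 had entries for 6 of the 10 genes (H2-Aa, H2-Eb1, H2-DMa, H2-DMb1, Cd207 and Epcam). The 150 bases before the start of 2 class II chain genes and of Cd207 follow, 5′ to 3′ on the gene's strand, with matches to CCAAT or its complement ATTGG and to the X box letters (CTAG, any 2 bases, AC, any base, GATG) in capitals.
H2-Eb1, chr17:34305717-34305866, plus strand: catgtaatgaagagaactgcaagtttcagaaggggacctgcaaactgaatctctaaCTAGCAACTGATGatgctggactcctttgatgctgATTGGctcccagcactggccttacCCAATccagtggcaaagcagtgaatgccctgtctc
H2-Aa, chr17:34287824-34287973, minus strand: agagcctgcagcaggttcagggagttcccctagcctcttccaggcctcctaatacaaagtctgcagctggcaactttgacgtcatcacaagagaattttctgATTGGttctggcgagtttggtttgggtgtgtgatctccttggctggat
Cd207, chr6:83677858-83678007, minus strand: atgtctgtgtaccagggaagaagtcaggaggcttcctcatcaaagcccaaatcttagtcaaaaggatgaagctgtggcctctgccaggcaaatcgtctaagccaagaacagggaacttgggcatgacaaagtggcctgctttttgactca

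In H2-Eb1 the X box letters began 94 bases before the start and an ATTGG began 59 bases before it. H2-DMb1 held the X box as CTAGTAACTGATG, beginning 97 bases before its RefSeq start, and an ATTGG 61 bases before it. H2-Aa held an ATTGG 48 bases before the start and no match to the full X box letters. H2-DMa likewise held no match to the full X box letters, and an ATTGG 198 bases before 1 of its RefSeq starts. Neither Cd207 nor Epcam held a match to any of the letters searched in the 300-base window from 250 bases before to 50 after the start. Over 32851 promoters of that length, 37.4% held the CCAAT letters on either strand, 20 promoters (0.0609%) held the full X box letters, and 10.4% held the looser core, which is the X box up to its AC. These matches describe the letters of the reference genome only.

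The 3 class II chain genes were abundant in normal skin and no difference between groups passed the test for any of them. H2-Aa ranged from 249 to 804 CPM in NS (median 598), from 223 to 862 CPM in AK (median 575), and was 343, 490, 291 and 66.98 CPM in cSCC replicates 18 to 21. H2-Ab1 ranged from 288 to 980 CPM in NS (median 764) and from 256 to 980 CPM in AK (median 751), and the cSCC values were 793, 939, 433 and 110 CPM. The groups overlapped for both genes, and replicate 21 lay below every NS and AK sample. H2-Eb1 ranged from 109 to 375 CPM in NS (median 266) and from 59.3 to 368 CPM in AK (median 236), and was 201, 256, 262 and 47.6 CPM in cSCC.

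In AK vs. NS the log2 fold changes of the chain genes were 0.02 ± 0.26 (SE) for H2-Aa, −0.14 ± 0.27 for H2-Ab1 and −0.24 ± 0.27 for H2-Eb1, with adjusted p of 0.968, 0.781 and 0.616 by edgeR's quasi-likelihood test. In cSCC vs. NS they were −0.88 ± 0.44, −0.28 ± 0.46 and −0.35 ± 0.40 (adjusted p = 0.177, 0.709 and 0.577). In cSCC vs. AK they were −0.88 ± 0.45, −0.11 ± 0.48 and −0.08 ± 0.44 (adjusted p = 0.170, 0.890 and 0.911). Each pair of comparisons shares a group of samples, so their values are not independent. Without cSCC replicates 20 and 21 no chain gene was called either. The log2 fold changes vs. NS and vs. AK were then −0.42 and −0.41 for H2-Aa, −0.12 and 0.15 for H2-Eb1, and 0.31 and 0.48 for H2-Ab1 (adjusted p = 0.613 and 0.487).

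**Figure D1:**
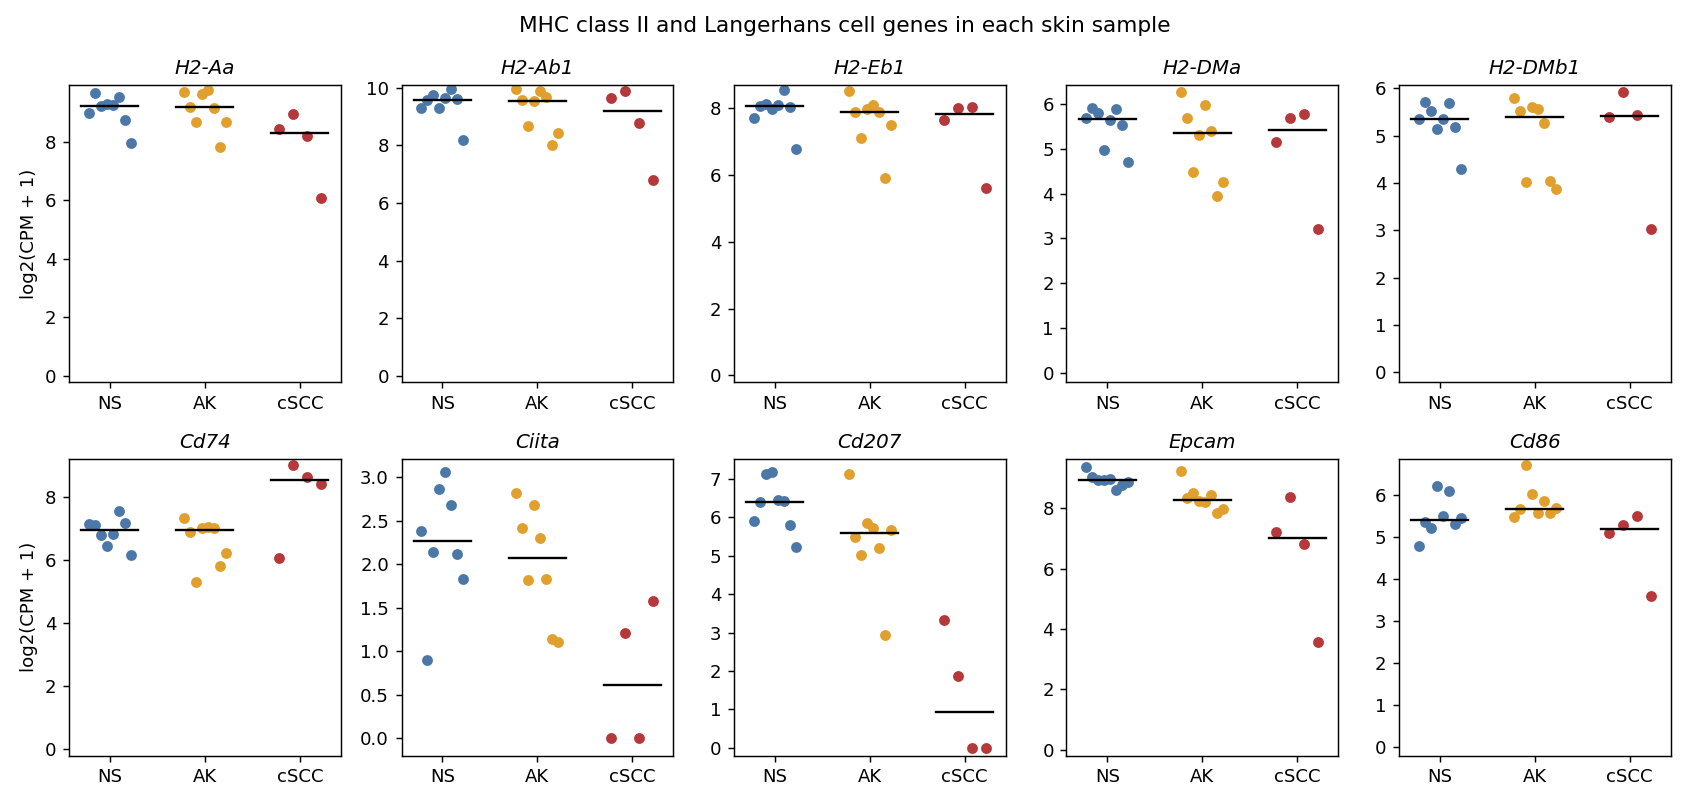
Level of each of the 10 genes in each sample as log2(CPM + 1), by group; points are samples (8 NS, 8 AK, 4 cSCC) and lines are group medians. The 4 cSCC samples lie below every NS sample for Cd207 and Epcam, and 3 of the 4 lie above every NS and AK sample for Cd74.

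H2-Eb1 had fewer counts than H2-Aa in all 20 libraries. The ratio of H2-Ab1 to H2-Aa counts was 0.940 to 1.80 in NS, 0.849 to 1.42 in AK and 1.49 to 2.31 in cSCC. The ratio of H2-Eb1 to H2-Aa was 0.332 to 0.615 in NS, 0.266 to 0.446 in AK and 0.523 to 0.898 in cSCC. Both cSCC ranges lay above the whole AK range and overlapped the NS range. These ratios were picked after their values were seen and were not tested. Over the 20 samples Spearman's rho was 0.684 between H2-Aa and H2-Ab1 and 0.823 between H2-Ab1 and H2-Eb1, a description over samples that share libraries and tissue composition.

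H2-DMa and H2-DMb1, whose products exchange the invariant chain fragment for peptide, passed no test either. H2-DMa ranged from 25.1 to 58.8 CPM in NS (median 49.6) and from 14.4 to 76.0 CPM in AK (median 39.7), and was 34.7, 50.5, 53.5 and 8.27 CPM in cSCC. H2-DMb1 ranged from 18.5 to 51.0 CPM in NS (median 39.98) and from 13.7 to 54.6 CPM in AK (median 40.9), and was 41.0, 59.8, 42.1 and 7.11 CPM in cSCC. Replicate 21 again held the lowest value of both. Their rho with each other over the 20 samples was 0.848. The log2 fold changes were −0.21 ± 0.29 and −0.19 ± 0.29 in AK vs. NS (adjusted p = 0.695 and 0.721), −0.30 ± 0.41 and −0.03 ± 0.42 in cSCC vs. NS (0.637 and 0.964), and −0.06 ± 0.49 and 0.19 ± 0.49 in cSCC vs. AK (0.941 and 0.810). Without replicates 20 and 21, the values vs. NS and vs. AK were −0.092 and 0.15 for H2-DMa and 0.39 and 0.60 for H2-DMb1, and none was called.

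Cd74, the invariant chain that occupies the class II groove until loading and also acts as a receptor for the cytokine MIF, was the member that was higher in cSCC. It ranged from 71.5 to 191 CPM in NS (median 126) and from 39.1 to 160 CPM in AK (median 124), and was 66.7, 528, 405 and 346 CPM in cSCC replicates 18 to 21. Replicate 18 lay below every NS sample, and the other three lay above every NS and every AK sample. Cd74 was 2.82-fold higher in cSCC than in NS (log2 fold change 1.49 ± 0.40, adjusted p = 0.0200) and 3.51-fold higher than in AK (1.81 ± 0.44, adjusted p = 0.0106), and did not pass in AK vs. NS (−0.26 ± 0.25, adjusted p = 0.548). The call vs. NS was lost with library size as the only scaling (1.38, adjusted p = 0.0595), without cSCC replicate 19 (1.20, 0.0726) and without replicates 20 and 21 (1.29, 0.106), and the call vs. AK was lost without replicates 20 and 21 (1.59, 0.0648). In replicate 19, where Cd74 was highest, Sftpc was at 3.52 CPM and Actc1 at 12.3 CPM. In replicate 18, where Cd74 was lowest in cSCC, they were at 6.95 and 10.4 CPM.

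Cd74 did not keep step with the chain genes in cSCC. The ratio of Cd74 to H2-Aa counts was 0.139 to 0.334 in NS and 0.0966 to 0.250 in AK, and was 0.194, 1.08, 1.39 and 5.17 in cSCC replicates 18 to 21. Of the 4 cSCC values, 3 were above every NS and AK value. In replicate 21 the class II chain genes were at their lowest while Cd74 stayed at 346 CPM. This ratio was chosen after its values were seen and was not tested. Over the 16 NS and AK samples rho between Cd74 and H2-Aa was 0.609, and over all 20 samples it was 0.209, a description over samples that share libraries. B cells and macrophages also express Cd74. The 6 B cell genes in the table summed to 1.80 to 8.61 CPM in NS, 1.80 to 22.6 CPM in AK and 3.52 to 30.6 CPM in cSCC, with Pax5 at 0 in all 20 samples, and the 10 macrophage genes summed to 1442 to 5007 CPM in NS, 1320 to 8082 CPM in AK and 859 to 7513 CPM in cSCC. In the macrophage sums 1 gene, called in no comparison, weighed most, at a mean of 2140 CPM in NS, 3657 in AK and 2795 in cSCC. Of the 10 macrophage genes, 3 were called higher and 0 lower in cSCC vs. NS, where 11.7% of all genes were higher. In cSCC vs. AK 2 were called higher and 0 lower, where 16% of all genes were higher. The part of B cells and macrophages in the Cd74 result was not tested. Nor was the part of the tissues behind the lung and heart genes of cSCC replicates 20 and 21.

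**Figure D2:**
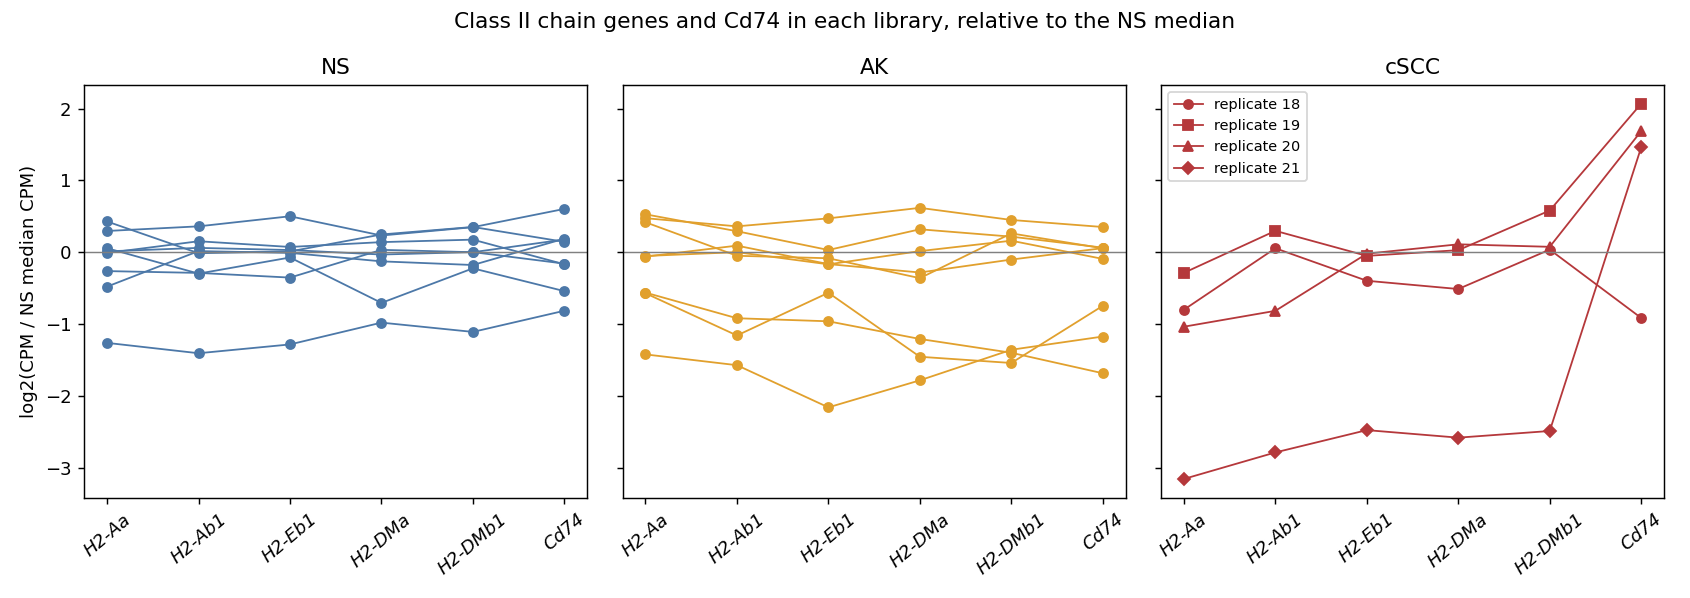
Log2 of each library's CPM over the NS median CPM for H2-Aa, H2-Ab1, H2-Eb1, H2-DMa, H2-DMb1 and Cd74, 1 line per library, with the cSCC replicates marked. Lines in NS and AK show no common rise at Cd74, and cSCC replicates 19, 20 and 21 rise at Cd74, which was 528, 405 and 346 CPM there.

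Ciita, the coactivator on which class II transcription depends, was low in every group. It had 3 to 34 counts in NS and 2 to 81 in AK, which were 0.869 to 7.32 CPM (median 3.81) and 1.14 to 6.06 CPM (median 3.24). In cSCC replicates 18 to 21 it had 0, 3, 0 and 12 counts, or 0, 1.32, 0 and 1.98 CPM. A count of 0 allows up to 2.08 CPM in replicate 18 and 3.41 CPM in replicate 20 (3 counts, counting error only). Of the 8 NS values, 1 lay below the first of these limits and 4 below the second. All 4 cSCC values lay below the NS median. The log2 fold changes were −0.25 ± 0.42 in AK vs. NS, −1.86 ± 0.77 in cSCC vs. NS and −1.51 ± 0.77 in cSCC vs. AK (adjusted p = 0.748, 0.102 and 0.162). With all 20 samples in 1 fit the cSCC vs. NS value passed the threshold (−1.97, adjusted p = 0.0480), and without cSCC replicates 20 and 21 it did not (−2.39, 0.157).

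Cd207, which encodes the langerin of Birbeck granules, was the member with the largest difference. It ranged from 36.2 to 142 CPM in NS (median 83.8) and from 6.59 to 139 CPM in AK (median 46.9). In cSCC replicates 18 to 21 it had 13, 6, 0 and 0 counts, or 9.03, 2.64, 0 and 0 CPM, where a count of 0 allows up to 3.41 CPM in replicate 20 and 0.496 CPM in replicate 21. All cSCC values lay below every NS value, and 3 of 4 below every AK value. AK replicate 16, at 6.59 CPM, was lower than cSCC replicate 18. Cd207 was 31.1-fold lower in cSCC than in NS (log2 fold change −4.96 ± 0.89, adjusted p = 0.00321) and 18.5-fold lower than in AK (−4.21 ± 0.98, adjusted p = 0.00878).

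Both Cd207 calls held without cSCC replicates 20 and 21, at −3.92 vs. NS (adjusted p = 0.00504) and −3.18 vs. AK (0.0332). The size of the difference depended on single libraries: without cSCC replicate 18 it was −6.64 vs. NS and −5.95 vs. AK, and without replicate 21 −4.33 and −3.65. The call vs. AK was lost with limma voom (−4.91, adjusted p = 0.148), and that vs. NS was −5.86 there. In AK vs. NS, Cd207 was lower than the NS median in 7 of 8 AK samples and did not pass the test (−0.72 ± 0.38, adjusted p = 0.251).

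Epcam, an adhesion molecule of Langerhans cells and of hair follicle and gland epithelium, ranged from 387 to 656 CPM in NS (median 490.5) and from 231 to 602 CPM in AK (median 312). In cSCC it was 149, 331, 112 and 10.9 CPM. Of the 8 AK samples 7, and all 4 cSCC samples, lay below every NS sample, while AK replicate 10, at 602 CPM, was above the NS median. None of its comparisons was called: −0.57 ± 0.17 in AK vs. NS (adjusted p = 0.0599), −1.67 ± 0.57 in cSCC vs. NS (0.0527) and −1.08 ± 0.56 in cSCC vs. AK (0.169). The call depended on the settings. With DESeq2 the AK vs. NS adjusted p was 0.0219, and the log2 fold change of −0.58 missed the fold limit. Epcam was called lower in AK with limma voom (−0.67, adjusted p = 0.00873), library size alone (−0.69, 0.0339), upper quartile factors (−0.63, 0.0391), a filter of 10 counts in every sample (−0.67, 0.0242), without AK replicate 10 (0.00996) and without NS replicate 8 (0.0481).

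In cSCC vs. NS, Epcam was lower with DESeq2 (−1.67, adjusted p = 0.0112), limma voom (−1.62, 0.0132), the filter of 10 counts (−1.73, 0.0336), all 20 samples in 1 fit (−1.72, 0.0125), without cSCC replicate 19 (0.0175) and without replicate 21 (0.0184). It was not called without replicates 20 and 21 (−1.01, 0.0651). Epithelial genes moved in the same comparison. Of 7 simple and adnexal epithelium genes tested in cSCC vs. NS, the keratin genes Krt18 (log2 fold change 7.58) and Krt19 (1.32) rose, and 2 genes fell, among them the cell adhesion gene Cdh1 (−1.61). Krt18 was 0 to 7.23 CPM in NS and 3.47 to 1112 CPM in cSCC, highest in replicate 19, so its groups overlapped. The 9 genes of that list summed to 664 to 1544 CPM in NS, 445 to 1013 CPM in AK and 212 to 1522 CPM in cSCC. Their part in the Epcam values was not tested, nor was that of the lung epithelium genes' source in replicate 20. Krt18, Krt19 and Cdh1 kept these calls without replicates 20 and 21, and the other one was lost. Krt19 also rose and Cdh1 also fell in cSCC vs. AK, and Lgr6, a hair follicle stem cell receptor gene, fell in AK vs. NS (−1.59, adjusted p = 0.0494).

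Cd86, the ligand of CD28 and CTLA-4 on T cells, ranged from 26.6 to 73.1 CPM in NS (median 41.1) and from 43.6 to 103 CPM in AK (median 50.1), and was 33.3, 37.8, 44.4 and 11.1 CPM in cSCC. All 8 AK samples lay above the NS median, and 3 of 4 cSCC samples lay below every AK sample. The log2 fold changes were 0.29 ± 0.22 in AK vs. NS, −0.50 ± 0.37 in cSCC vs. NS and −0.78 ± 0.35 in cSCC vs. AK (adjusted p = 0.415, 0.359 and 0.113), so Cd86 did not pass in any comparison. Without cSCC replicates 20 and 21 the values were −0.34 vs. NS and −0.60 vs. AK, and neither passed.

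Counted together, 0 of the 10 genes were called in AK vs. NS by edgeR, where 4.64% of 11677 genes were called (2.26% higher, 2.38% lower), 1 of the 10 had an unadjusted p under 0.05, DESeq2 called 0 and limma voom 1. Of the 10 log2 fold changes 8 were negative, with a median of −0.22 against −0.04 over all genes. In cSCC vs. NS, 1 gene was higher (Cd74) and 1 lower (Cd207), where 19.3% of 12097 genes were called (11.7% higher, 7.65% lower), and the median was −0.43 against 0.14. Cd207 and Epcam, 2 of 10, did not overlap between cSCC and NS, where 8.43% of genes did not. In cSCC vs. AK the same genes were called, 1 higher and 1 lower, where 24.4% of 12032 genes were called (16% higher, 8.34% lower), the median was −0.44 against 0.17, and no member failed to overlap, where 10.2% of genes did not. A count of 2 of 10 is near the background share in both cSCC comparisons. Without cSCC replicates 20 and 21, only Cd207 was called in either comparison, where 12.2% of genes were called vs. NS (5.74% higher, 6.46% lower) and 12.6% vs. AK (6.71% higher, 5.9% lower). The median of the 10 genes was then −0.23 vs. NS, against −0.062 over all genes, and −0.13 vs. AK, against −0.0059.

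**Figure D3:**
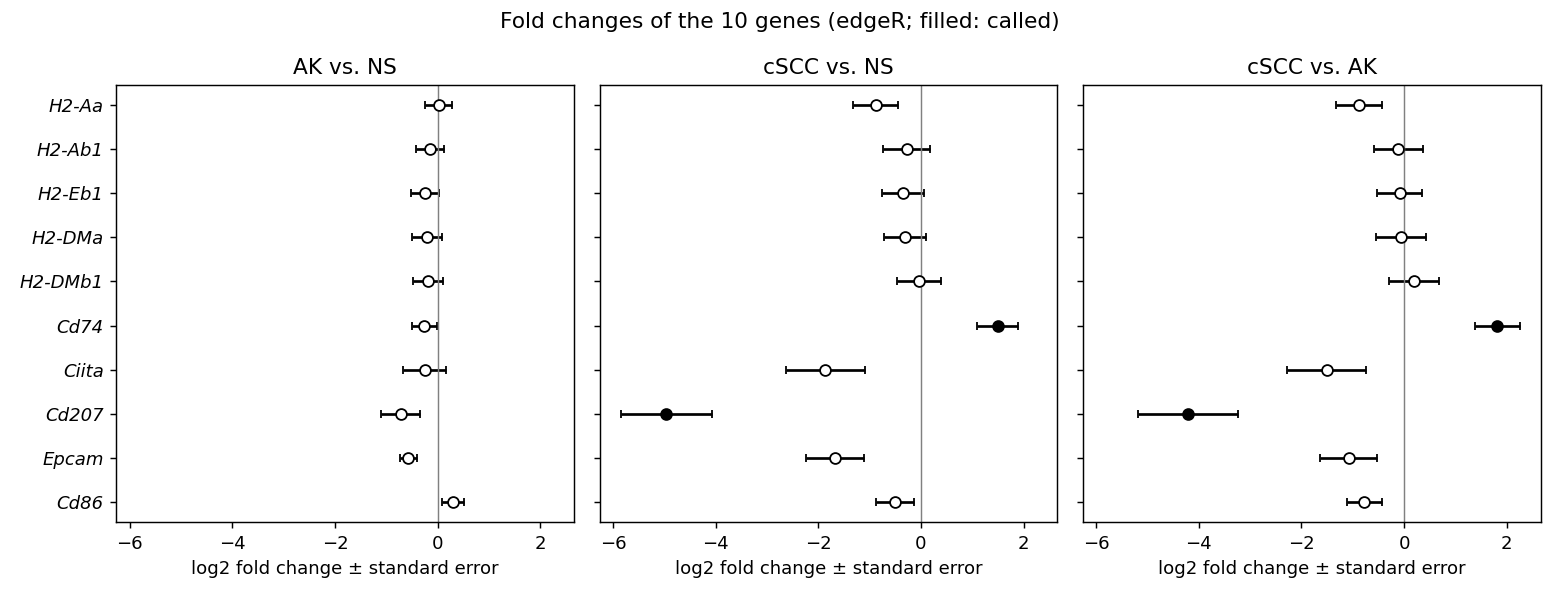
Log2 fold change of each gene in the 3 comparisons (x axis), with bars of 1 standard error from edgeR's quasi-likelihood test; filled points were called (adjusted p under 0.05 and fold above 1.5 or below 0.67). The filled points are Cd74, higher, and Cd207, lower, in both cSCC comparisons.

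Levels were set side by side per kilobase of exon. In NS, H2-Ab1 was highest at 277 ± 80.5 CPM per kb (SD, n = 8), followed by Epcam at 225 ± 35.6, H2-Aa at 149 ± 46.0, H2-Eb1 at 130 ± 38.5, Cd74 at 74.3 ± 22.4, Cd207 at 56.1 ± 25.03, H2-DMb1 at 23.4 ± 6.28, H2-DMa at 13.5 ± 3.63, Cd86 at 12.5 ± 4.33 and Ciita at 0.438 ± 0.220. Neighbours within 1 SD of each other were H2-Ab1 and Epcam, H2-Aa and H2-Eb1, Cd74 and Cd207, and H2-DMa and Cd86. In AK the order was the same for the first 5 genes, with H2-Ab1 at 255 ± 109, Epcam at 154 ± 52.5 and H2-Aa at 154 ± 61.3 CPM per kb, and Cd207 was 34.1 ± 25.4. In cSCC (n = 4), H2-Ab1 at 222 ± 145 and Cd74 at 200.4 ± 116 CPM per kb led, ahead of H2-Eb1 at 98.6 ± 51.4, H2-Aa at 78.4 ± 46.2 and Epcam at 68.6 ± 60.9. Cd207 was 1.92 ± 2.80 CPM per kb there, below H2-DMb1, H2-DMa and Cd86.

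A ratio of 2 genes within a library needs no scaling between libraries. The count ratio of Cd207 to H2-Ab1 was 0.0706 to 0.229 in NS (median 0.109), 0.0257 to 0.146 in AK (median 0.0668) and 0 to 0.0114 in cSCC. Every cSCC value was below every NS and AK value. With 0.5 added to each count, the mean log2 ratio was −3.11 ± 0.54 (SD, n = 8) in NS, −3.87 ± 0.82 (n = 8) in AK and −8.68 ± 1.73 (n = 4) in cSCC. The difference was −5.57 in cSCC vs. NS and −4.81 in cSCC vs. AK (both p = 0.00202, two-sided exact permutation test, the smallest p it can give; adjusted p = 0.00606 over 9 tests). In AK vs. NS it was −0.76, with 4 of 8 AK samples below every NS sample (exact permutation p = 0.0463, adjusted p = 0.0834).

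Cd207 had 0 counts in cSCC replicates 20 and 21, so the log2 ratios with Cd207 there depended on the 0.5 added. The ratios of Cd207 to H2-Ab1 and of Epcam to Cd207 use the same Cd207 counts, so they are not separate observations of Cd207. The ratio of Epcam to Cd207 was higher in cSCC. Its mean on the log2 scale was 2.65 ± 0.71 over the NS samples, 3.01 ± 0.96 over AK and 6.38 ± 1.62 over cSCC, a difference of 3.74 in cSCC vs. NS (exact permutation p = 0.00202, adjusted p = 0.00606) and 3.37 in cSCC vs. AK (p = 0.00404, adjusted p = 0.00909, exact), with no difference shown in AK vs. NS (0.36, exact permutation p = 0.427, adjusted p = 0.480). The ratio of Cd86 to H2-Ab1 was −3.94 ± 0.67, −3.41 ± 0.92 and −3.94 ± 0.75 on the log2 scale in NS, AK and cSCC, and none of its 3 differences passed (adjusted exact permutation p = 0.314, 1 and 0.436). Without cSCC replicates 20 and 21 the differences of the Cd207 to H2-Ab1 ratio were −4.27 vs. NS and −3.51 vs. AK, and those of the Epcam to Cd207 ratio 2.78 and 2.42, but 2 against 8 samples cannot give an exact permutation p below 0.0222.

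**Figure D4:**
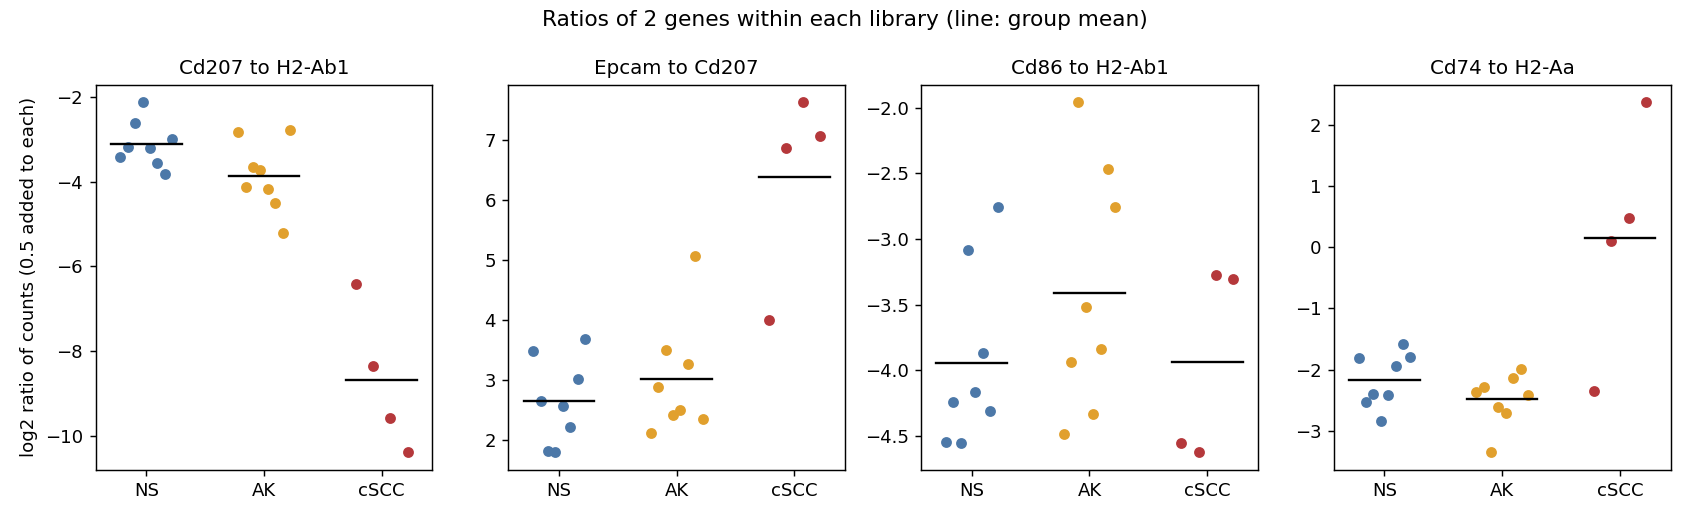
Log2 of the count ratio of 2 genes in each library (0.5 added to each count), by group; points are samples and lines are group means. The cSCC samples lie below all NS and AK samples for Cd207 to H2-Ab1 (means −8.68, −3.11 and −3.87), and 3 of 4 lie above them for Cd74 to H2-Aa.

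Genes that act around class II were mostly not called. Of all genes, 4.64% were called in AK vs. NS, 19.3% in cSCC vs. NS and 24.4% in cSCC vs. AK, also for the lists below. In lists this short, 0 or 1 call does not set a list apart from these shares. Of the 4 other class II chain genes (H2-Eb2, H2-DMb2, H2-Oa and H2-Ob), 2 were tested and 0 called in each comparison. Of the 7 genes of the RFX, NF-Y and CREB factors that bind class II promoters, 0 were called in AK vs. NS, Rfxap, an RFX subunit, fell in cSCC vs. NS (−1.58, adjusted p = 0.0415), and 0 were called in cSCC vs. AK or without replicates 20 and 21. Of 8 peptide loading and turnover genes (cathepsins, Lgmn, Ifi30 and the March ubiquitin ligases), 0 were called in any of the 3 comparisons, while without replicates 20 and 21 March8 was called lower vs. NS (−1.78, adjusted p = 0.0142) and vs. AK (−1.40, 0.0473). Of 3 costimulation genes tested, Icam1, the ligand of the integrin LFA-1, rose in cSCC vs. NS (2.03, adjusted p = 0.0123) and kept its call without replicates 20 and 21, where Cd80 was also called higher vs. AK (3.38, 0.0365).

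Of 6 axis genes tested in AK vs. NS, 3 rose and 0 fell, where 2.26% of all genes rose. Among them were the transcription factor gene Irf1 (log2 fold change 0.88, adjusted p = 0.0190) and the kinase gene Jak2 (0.77, 0.0215). The median of the 6 was 0.46 against −0.04 over all genes. Of 6 tested in cSCC vs. NS, only Irf1 was called (1.26, adjusted p = 0.0187), and in cSCC vs. AK the receptor gene Ifngr2 rose (2.11, 0.0156) and 1 gene fell of 7, and 0 of the 7 were called without replicates 20 and 21.

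Of 9 class I presentation genes, 0 were called in AK vs. NS, and in both cSCC comparisons 1 fell and 0 rose. That gene was Nlrc5, the class I counterpart of Ciita (−2.06 vs. NS, adjusted p = 0.0197, and −2.32 vs. AK, 0.00789), and it was also called without replicates 20 and 21. The list's median was −0.23 vs. NS and −0.65 vs. AK, against 0.14 and 0.17 over all genes, and without replicates 20 and 21 it was −0.071 and −0.23, against −0.062 and −0.0059.

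Of the 11 genes in the Langerhans cell list (Cd207 and Epcam included), Cd24a (1.21, adjusted p = 0.0276) and the endocytic receptor gene Ly75 (0.97, 0.0485) rose in AK vs. NS and 0 fell. Against NS, in cSCC, Cd207 fell and Tnfaip2 rose (1.48, 0.0349). In cSCC vs. AK, Cd207 and Gpnmb (−2.14, 0.0268) fell and Tnfaip2 rose (1.98, 0.0147), and the same genes were called in both comparisons without replicates 20 and 21. The list's median was −0.56 vs. NS and −1.08 vs. AK, against 0.14 and 0.17 over all genes, and −0.70 and −0.78 without those replicates, against −0.062 and −0.0059. Several genes of this list are also expressed by keratinocytes and macrophages. Cd24a was 140 to 697 CPM in NS and 778 to 1472 CPM in AK, with no overlap between the groups, where 0.522% of all genes did not overlap.

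Genes that keep Langerhans cells in the epidermis include the keratinocyte cytokine gene Il34 and the TGF-beta activating integrin and receptor genes. Of 11 tested in AK vs. NS, Il34 fell (−1.55, adjusted p = 0.0316) and Tgfbr1 rose (0.69, 0.0418). Il34 was 4.51 to 20.01 CPM in NS and 0 to 5.01 CPM in AK. In cSCC the integrin subunit gene Itgb8 fell vs. NS (−2.33, 0.0231) and vs. AK (−2.61, 0.00600), as did the xenobiotic receptor gene Ahr (−1.53, 0.0360, and −1.78, 0.0124), and the myeloid factor gene Spi1 rose vs. AK (2.24, 0.0187). Without replicates 20 and 21, Itgb8 kept both calls, Ahr kept the one vs. AK and Spi1 was not called.

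Of 7 dendritic cell genes tested, 0 were called in AK vs. NS, and Itgae, the integrin subunit CD103, fell in cSCC (−2.51 vs. NS, adjusted p = 0.00407, and −2.31 vs. AK, 0.00588). Itgae is also expressed by epidermal T cells, and of 4 T cell genes tested Cd3g fell as well (−3.60, 0.00466, and −2.93, 0.00824), also without replicates 20 and 21. The 6 T cell genes in the table summed to 54.8 to 202 CPM in NS, 27.0 to 153 CPM in AK and 6.28 to 39.8 CPM in cSCC. Of the dendritic cell migration genes (8 tested vs. NS, 9 vs. AK), 0 were called in AK vs. NS, and in cSCC the actin bundling gene Fscn1 rose (2.21, 0.0194, and 2.78, 0.00452) and the chemokine gene Ccl22 fell (−4.13, 0.00167, and −3.20, 0.00796). Without replicates 20 and 21, Fscn1 was not called, Ccl22 was called only vs. NS, and Cxcl16 was called higher in both comparisons (0.94, 0.0374, and 0.85, 0.0195).

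Of 10 macrophage genes tested, the Fc receptor gene Fcgr1 rose in AK vs. NS (1.49, adjusted p = 0.0356). The lipopolysaccharide coreceptor gene Cd14 (4.35, 0.000323), the complement gene C1qa (1.73, 0.0341) and Fcgr1 (1.64, 0.0485) rose in cSCC vs. NS, and Cd14 (3.97, 0.00194) and C1qa (2.77, 0.00248) rose vs. AK. None fell. Without replicates 20 and 21, C1qa was not called vs. NS (1.87, 0.0759) and the other calls remained. Cd14 was 9.58 to 54.5 CPM in NS and 114 to 1022 CPM in cSCC. B cell genes had too few counts to be tested vs. NS, and of 2 tested in cSCC vs. AK 0 were called. Of 8 keratinocyte genes, the differentiation genes Lor, Flg, Krt10 and Krt1 fell in cSCC vs. NS (Lor −6.35, adjusted p = 0.000558) and 1 gene rose, and the same 4 fell vs. AK, while Lor alone fell in AK vs. NS (−1.71, 0.0170). Without replicates 20 and 21, Krt1 was called in neither comparison, Krt10 only vs. NS, and Krt5 was called higher vs. AK (1.28, 0.00860). The 8 summed to 8661 to 23484 CPM in NS and 3794 to 18455 CPM in cSCC, lowest in replicate 21. Their part in the Cd207 and class II values was not tested.

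**Figure D5:**
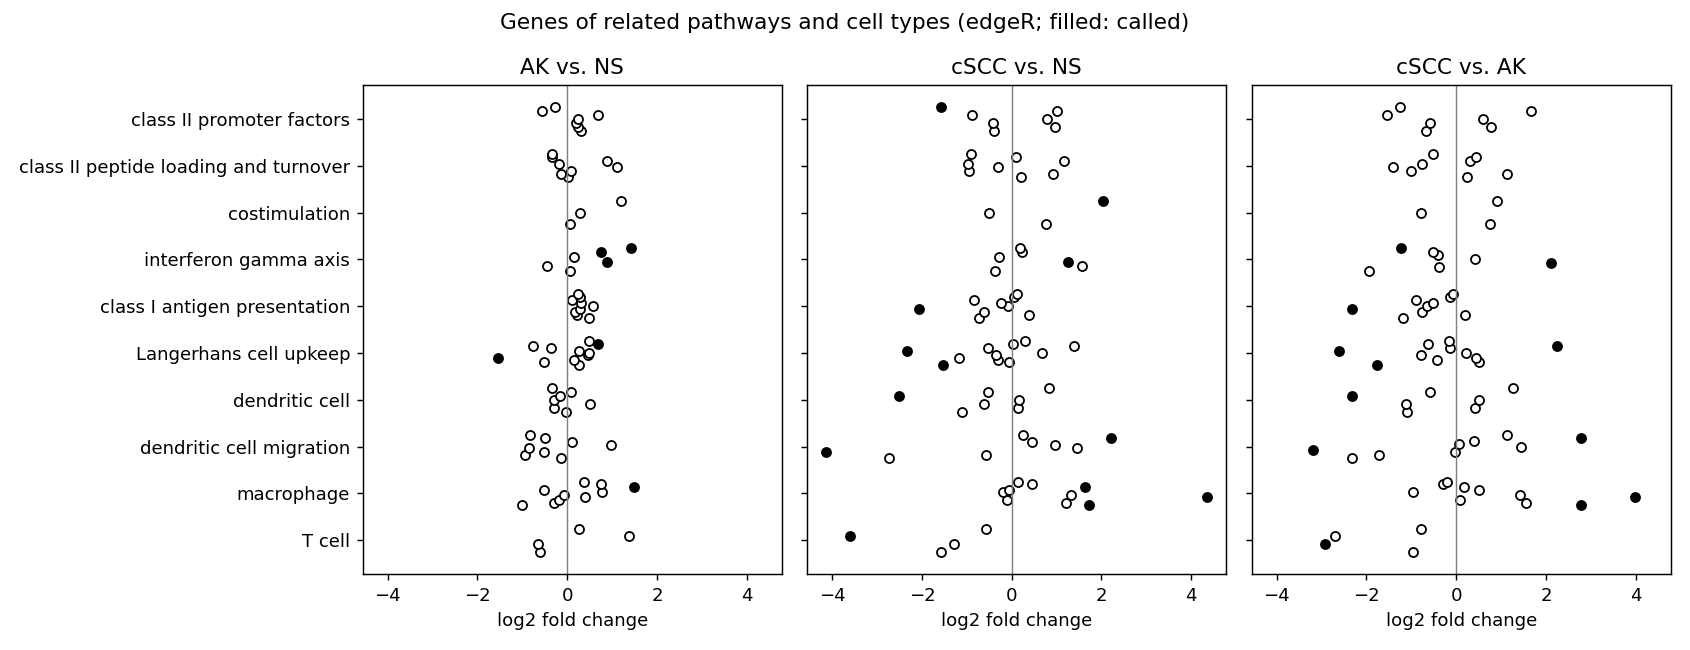
Log2 fold change (x axis) of each tested gene in 10 lists of related pathways and cell types, in the 3 comparisons, by edgeR; filled points were called. In AK vs. NS the interferon gamma axis has 3 filled points, all higher, and the class II promoter factor and loading lists have 0.

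The genes whose levels most resembled those of H2-Ab1 over the 20 samples, among 10811 non-members with a mean of at least 5 CPM, were Elmo3 (Spearman's rho 0.859), the non-classical class I genes H2-Q4 (0.808) and H2-T23 (0.792), the lysosomal transporter gene Slc15a4 (0.791) and H2-DMb2 (0.786). Over the 16 NS and AK samples their rho was 0.782 to 0.879. For Cd207 they were Gm13306 (0.957), Ccl27a (0.945), Ccl22 (0.942), Ccl27b (0.942) and Clca1 (0.927), with rho of 0.865 to 0.924 over the NS and AK samples. Gm13306, Ccl27a and Ccl27b are near-identical copies of the keratinocyte chemokine gene Ccl27, so their counts could be split between copies and they are not separate observations. The mean level of Ccl27a was 306 CPM in NS, 117 CPM in AK and 15.3 CPM in cSCC, and that of Cd207 85.5, 51.9 and 2.92 CPM. Ccl27a was picked by its rho with Cd207 over these samples, so the like order is no separate observation. These correlations describe samples that share libraries and tissue composition.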

How the data were processed

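RNA of 20 skin samples was sequenced with a Nextera kit. The authors deposited raw counts per gene symbol, not normalized. The paper names Trimmomatic, HISAT2, GRCm38 and StringTie, while the submitters' processing notes name Trimmomatic 0.36, HISAT2 2.0.5, featureCounts 1.5.2 and the builds hg19 and mm9. Strand and annotation of the counting are not given in the sources used here. How far SKH-1 class II alleles differ from the reference was not tested. Every count column named a sample by its label.

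CPM used TMM factors over the 20 samples. Each comparison used only its own samples, filterByExpr and edgeR 4.0.16's quasi-likelihood test in R 4.3.3, with Benjamini-Hochberg adjustment over all genes tested and a call at an adjusted p under 0.05 with a fold above 1.5 or below 0.67. The standard error is the log2 fold change over the square root of F. Ratios were tested by two-sided exact permutation. The edgeR test with its fold limits was run on simulated counts with genes changed by a log2 fold change of 2. It recovered 91.4% of 197 in AK vs. NS (11612 genes), 45.4% of 196 in cSCC vs. NS (12439) and 57.9% of 195 in cSCC vs. AK (12388). Among unchanged genes, 8, 0 and 6 were called. A gene not called in cSCC may therefore still differ. Over 62 pairs of samples of the same group, chi-square of the counts per degree of freedom was at least 12.3, so none was a repeated library. Replicates are separate tissue pieces, some from 1 mouse, so p-values measure the spread between pieces. Limits of 3 counts cover counting error only.

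The genes and lists were chosen with earlier results of these data known. From the lists, called genes could be named, up to 4 per list and comparison by adjusted p, and some of them are not reported here. For H2-Ab1 and Cd207, the 5 non-members with the highest rho were named. Alternatives were DESeq2 1.42.0, limma 3.58.1 (voom with sample weights), upper quartile factors, library size alone, no filter, 10 counts in every sample, 1 fit of all samples, no fold limit, other counts added in ratios, and leaving out single samples or cSCC replicates 20 and 21.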

Additional observations from a re-analysis of the deposited data

Results flagged for a closer look

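In each group of 8 NS, 8 AK or 4 cSCC samples, the gap of the highest or lowest sample to its neighbour was compared with the whole range for each of the 10 genes. Of 30 such groups, 3 exceeded the Dixon limit, 0.526 for 8 samples, which chance exceeds in about 1 of 20 groups. Cd207 in AK was highest in replicate 10, at 139 CPM against 56.1 CPM in the next sample (gap over range 0.627). Epcam in AK was highest in the same replicate, at 602 CPM against 362 CPM (0.647). That library was also the deepest, with 14055206 counts. Without it the AK vs. NS log2 fold change of Epcam passed the test (adjusted p = 0.00996) and that of Cd207 did not. Cd86 in AK was highest in replicate 12, at 103 CPM against 64.3 CPM (0.655), a library of 867219 counts where Cd86 had 82 counts.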

How the results depend on the processing

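No paired analysis was possible because the groups share no replicate number and no label ties a tissue to its mouse. The number of genes called in AK vs. NS was 1 (Epcam) with limma voom, library size alone, upper quartile factors and 10 counts in every sample, and 0 to 1 when single samples were left out. In cSCC vs. NS it was 1 with library size alone and without cSCC replicates 20 and 21, 4 (Cd207, Ciita, Epcam, Cd74) with all 20 samples in 1 fit, and 2 to 3 leaving out single samples. In cSCC vs. AK it was 1 with limma voom, with 10 counts in every sample (where Cd207 was not tested) and without replicates 20 and 21, and 2 to 3 leaving out single samples. Cd207 in cSCC vs. NS was called in all 20 alternatives that could test it. The cause of the other changes was not tested. Library size alone moved the median of all genes from 0.14 to −0.17 in cSCC vs. NS, with 625 higher and 1332 lower calls against 1414 and 926, from 0.17 to −0.09 in cSCC vs. AK (1021 and 1356 against 1931 and 1004) and from −0.04 to −0.13 in AK vs. NS (176 and 481 against 264 and 278).

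Without cSCC replicates 20 and 21 the ratio of Cd207 to H2-Ab1 differed by −4.27 and −3.51 and that of Epcam to Cd207 by 2.78 and 2.42 (vs. NS and vs. AK), with adjusted exact permutation p of 0.0667, 0.0667, 0.0667 and 0.0834. With another count added, the differences in cSCC vs. NS reached −6.76 for Cd207 to H2-Ab1 and 4.92 for Epcam to Cd207. Leaving out single samples, the AK vs. NS difference of Cd207 to H2-Ab1 was −0.92 to −0.57, and it passed without AK replicate 10 or 17 (adjusted exact permutation p = 0.0308 and 0.0288). The cSCC vs. NS difference of Cd86 to H2-Ab1, 0.0026, turned to −0.0035 with 0.1 added and −0.65 without replicates 20 and 21, and was −0.22 to 0.23 leaving out single samples.

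Directions turned only in values that passed no test. H2-Aa in AK vs. NS was −0.0071 with limma voom, −0.083 with library size alone, −0.046 with upper quartile factors, −0.065 with 10 counts in every sample, and −0.089 to 0.14 leaving out single samples. In cSCC vs. NS, H2-DMb1 was 0.20 with limma voom, 0.39 without replicates 20 and 21 and −0.38 to 0.33 leaving out single samples, H2-Ab1 was 0.31 and −0.63 to 0.061, and H2-DMa −0.56 to 0.041. In cSCC vs. AK, limma voom gave 0.065 for H2-Ab1, 0.25 for H2-Eb1 and 0.19 for H2-DMa, and leaving out replicates 20 and 21 gave 0.48, 0.15 and 0.15. Leaving out single samples gave −0.48 to 0.15, −0.28 to 0.16 and −0.30 to 0.20 for these, and −0.16 to 0.47 for H2-DMb1. Epcam in cSCC vs. AK passed without cSCC replicate 19 (−1.84, adjusted p = 0.0348). Depth limits Ciita (0 to 12 counts per cSCC library) and Cd207 (0 to 13).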
